A study of Homo sapiens with 20 samples.

Results

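The genes described here are 8 human repair genes that recognise DNA damage, copy past it or supply nucleotides for filling the gap: DDB2, XPC, POLH, RRM2B, DDB1, XPA, ERCC5 and POLK. They were chosen by name, with earlier results of these data known. They are the rows of the count table whose Ensembl identifier maps to these symbols, and all 8 were found among 58787 genes. DDB2, XPC, POLH and RRM2B are known targets of p53, while DDB1, XPA, ERCC5 and POLK work beside them in the same steps and are counted here as non-target partners. Of the 8 genes, 7 had enough counts to be tested and ERCC5 did not.

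Expression was measured in IMR-32 cells, a long-established line from a human neuroblastoma that has an amplified MYCN gene and wild-type p53, with the genotype labelled WT in every library. The adherent cells were exposed for 24 h to the combination of Dyngo-4a and prexasertib, to Dyngo-4a at 2.26 µM (the high dose), to Dyngo-4a at 1 µM (the low dose), to prexasertib at 2 nM or to DMSO, the solvent, with 4 libraries in each of the 5 groups. No source used here gives the doses within the combination. Prexasertib blocks CHK1, a kinase that slows the cell cycle when replication stalls, and Dyngo-4a was made to block dynamin, the GTPase that pinches off endocytic vesicles. The labels put all libraries in 1 batch and do not tell apart separate cultures from repeat libraries, so the p-values measure the spread between these libraries, which may be technical. All 4 drug groups are set against the same DMSO libraries, and a single cell line was used.

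Nucleotide excision repair removes bulky lesions such as those left by ultraviolet light. In its global branch, DDB2 and DDB1 form the UV-DDB complex that finds distorted DNA and passes it to XPC. XPA then checks the lesion, and ERCC5, also called XPG, cuts the damaged strand on its 3′ side. A lesion that is still present when the fork arrives can be copied by a translesion polymerase, with POLH (polymerase eta) suited to ultraviolet dimers and POLK (polymerase kappa) to bulky adducts in the minor groove. RRM2B is the small subunit of ribonucleotide reductase that p53 induces outside S phase, where it takes the place of RRM2 beside the large subunit RRM1. p53 switches on its targets by binding a site built of a pair of decamer half-sites.

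DDB2 is shown by sequence because its start region holds a match to the p53 site and because it had the strongest rise of the 7 tested genes under the combined drugs. The sequence is RefSeq's, GRCh38.p14, chr11:47214975-47215003, forward strand, with both half-sites in capitals.
DDB2 p53 site: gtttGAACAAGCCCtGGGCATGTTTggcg
The 21-base match runs from 47214979 to 47214999, with 1 base between the half-sites, and begins 5 bases after a RefSeq start site at 47214974. The search used the p53 half-site consensus on both strands, in windows from 250 bases before to 50 bases after each RefSeq start, and allowed 0 to 13 bases between half-sites. Such a full site was found in 10 of 35116 windows (0.0285%), and a single half-site in 2329 (6.63%). The other DDB2 window and the windows of XPC, POLH, DDB1, XPA, ERCC5 and POLK held no half-site, which says only that these letters are absent from those windows. RRM2B was not searched. A letter match is a description and not evidence of binding.

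Positions are those of GENCODE 29 on GRCh38. DDB2 (ENSG00000134574) lies on chromosome 11 at 47214465 to 47239240 on the forward strand, and XPC (ENSG00000154767) on chromosome 3 at 14145147 to 14178783 on the reverse strand. POLH (ENSG00000170734) lies on chromosome 6 at 43576150 to 43615660 on the forward strand, and RRM2B (ENSG00000048392) on chromosome 8 at 102204502 to 102239118 on the reverse strand. Among the partners, DDB1 (ENSG00000167986) lies on chromosome 11 at 61299451 to 61342596 and XPA (ENSG00000136936) on chromosome 9 at 97674909 to 97697357, both on the reverse strand. ERCC5 (ENSG00000134899) lies on chromosome 13 at 102807146 to 102876001 and POLK (ENSG00000122008) on chromosome 5 at 75511756 to 75601144, both on the forward strand.

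Library totals ran from 3960885 to 6537843 counts, and 13729 genes were tested. The levels below are CPM, counts scaled per library total with TMM factors. A count of 0 would allow a level of up to 0.459 to 0.757 CPM, counting error only. The 14 adrenergic neuroblastoma markers, of which 13 were tested, summed to 7143 to 7497 CPM in the combination and to 7384 to 8027 CPM in DMSO. At the high dose they summed to 7027 to 7829 CPM. There 5 of the 13 passed as higher and 6 as lower against DMSO in edgeR's test, where 25.2% of all tested genes passed. SOX10 of glia and CD3E of leukocytes were at 0 in every library. The share of counts from MALAT1, a nuclear RNA picked after its values were seen, was 1.74% to 2.92% in the combination, 2.80% to 3.15% at the high dose, 1.18% to 2.08% at the low dose, 1.04% to 1.73% with prexasertib and 0.941% to 1.76% in DMSO. Its part in the results below was not tested, and in bulk samples a change in the share of some cells and a change in RNA per cell cannot be told apart.

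Under the combination the 4 p53 targets rose together and the 3 tested partners did not pass the test. DDB2 was 3.14-fold, POLH 3.05-fold, RRM2B 2.65-fold and XPC 1.81-fold its level in DMSO. In this comparison 6.3% of all tested genes passed, and 3.47% passed as higher. Each of the 4 genes was higher in every combination library than in any of the 16 other libraries, a separation that 1.3% of all tested genes had. The genes were chosen with earlier results of these data known, so these shares describe them and are no independent evidence.

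**Figure D1:**
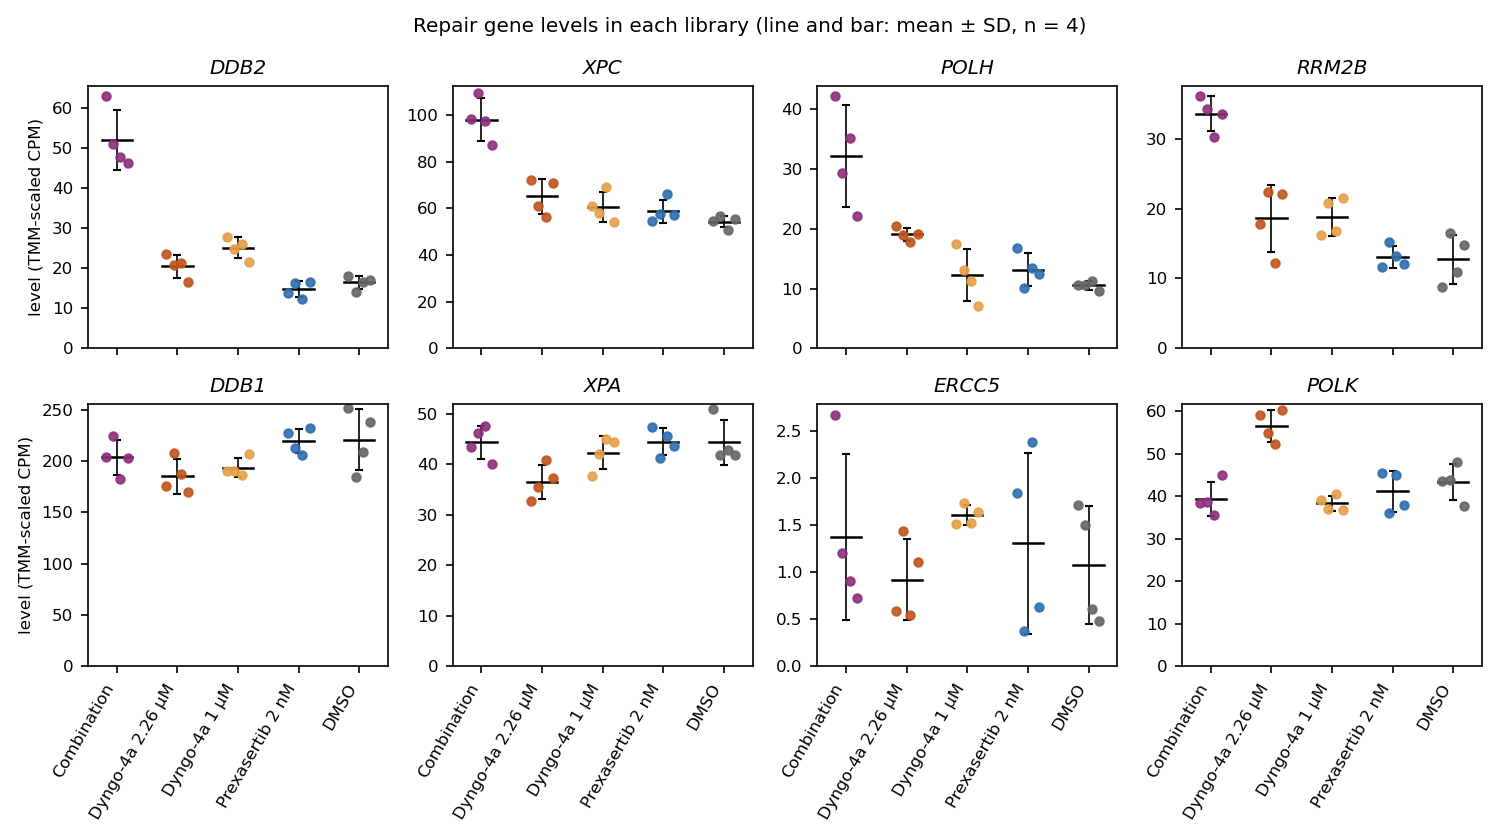
Level of each of the 8 genes in CPM in every library (points), with the mean and SD of each group of 4 as a line and bar, for the combination, the high and low dose of Dyngo-4a, prexasertib and DMSO; each vertical axis starts at 0. The combination points of DDB2, XPC, POLH and RRM2B stand above all others, those of POLK are highest at the high dose, and ERCC5 stays under 3 CPM.

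DDB2, the damage-finding subunit of UV-DDB, stood at 63.0, 51.2, 47.9 and 46.2 CPM in the combination. The high dose gave 23.5, 20.7, 21.2 and 16.6 CPM and the low dose 27.8, 24.8, 26.1 and 21.6 CPM. Prexasertib gave 13.9, 16.4, 12.3 and 16.6 CPM, against 18.1, 14.0, 16.5 and 17.1 CPM in DMSO. The combination libraries thus form a set of their own, the low-dose libraries all lie above the DMSO ones, and prexasertib overlaps DMSO. The log2 fold change of the combination against DMSO was 1.65 ± 0.14 (SE; edgeR adjusted p = 4.43e-11), the 15th smallest p of all tested genes. Against prexasertib it was 1.81 ± 0.14 (edgeR adjusted p = 1.17e-11), the 5th smallest.

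XPC, the lesion sensor that starts global repair, stood at 98.5, 109.6, 97.4 and 87.0 CPM in the combination, and at 72.0, 61.2, 56.2 and 71.1 CPM at the high dose. The low dose gave 60.9, 57.9, 69.3 and 54.0 CPM, and prexasertib 54.4, 57.6, 66.0 and 57.0 CPM, against 54.6, 56.7, 50.8 and 55.4 CPM in DMSO. XPC thus had the smallest rise of the 4 targets, and its 3 single-drug groups all overlap DMSO. The combination differed from DMSO by 0.85 ± 0.10 on the log2 scale (edgeR adjusted p = 2.17e-07).

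The partners in damage recognition kept close to their DMSO levels under the combination. DDB1, which holds DDB2 on the CUL4 ubiquitin ligase, ranged from 183 to 225 CPM in the combination and from 185 to 251 CPM in DMSO. Its log2 difference was -0.12, with a 95% interval of -0.31 to 0.07 (edgeR adjusted p = 0.539). XPA, the lesion-checking scaffold, ranged from 40.1 to 47.7 CPM in the combination and from 41.8 to 51.0 CPM in DMSO, a log2 difference whose interval was -0.22 to 0.22 (edgeR adjusted p = 0.991). These intervals lie below the whole interval of DDB2, which was 1.37 to 1.94, and of XPC, which was 0.64 to 1.06, although the difference between genes was not tested.

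ERCC5 held 4 to 12 counts per library in the combination, 3 to 8 at the high dose, 7 to 11 at the low dose, 2 to 12 with prexasertib and 3 to 9 in DMSO. Some of these are at or near the 3 counts that a count of 0 allows. A change of this endonuclease was therefore not detectable from these counts. Its exons are shared with the read-through gene BIVM-ERCC5, which was listed at 0 in all 20 libraries, so how reads were divided between them is uncertain.

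POLH, the polymerase that copies past ultraviolet dimers, stood at 42.2, 29.3, 35.2 and 22.1 CPM in the combination and at 20.5, 18.9, 17.8 and 19.2 CPM at the high dose. The low dose gave 17.5, 13.1, 11.3 and 7.09 CPM, and prexasertib 16.8, 10.1, 13.5 and 12.4 CPM, against 10.7, 10.5, 11.3 and 9.61 CPM in DMSO. Both the combination and the high dose lie wholly above DMSO, a position that 5.66% of all tested genes had in the combination and 11.8% at the high dose, and the combination spreads most, with its replicates 1 and 3 above 2 and 4. In the combination POLH differed from DMSO by 1.61 ± 0.20 on the log2 scale (edgeR adjusted p = 3.98e-07). Within replicates 1 and 3 it was 1.82 and within replicates 2 and 4 it was 1.35, both past the threshold in edgeR's test.

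The last part of POLH overlaps GTPBP2, a gene on the opposite strand, over 10345 bases that include its 3′ end, and no source used here says whether counting used strand. GTPBP2 itself averaged 39.3 ± 6.9 CPM in the combination and 35.1 ± 2.7 CPM in DMSO (SD, n = 4 each) and did not pass the test (log2 fold change 0.16, edgeR adjusted p = 0.519). XPC overlaps LSM3 at its 5′ end, and LSM3 did not rise with it: its log2 fold change was -0.06 in the combination and -0.44 at the high dose, the second passing as lower in edgeR's test. AC090004.1 and AC093495.1, genes on the opposite strand at the 3′ end of XPC, stayed under 1 CPM in every library.

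POLK, the other bypass polymerase, took a different course. It stood at 38.4, 38.6, 35.6 and 45.0 CPM in the combination and at 59.0, 54.7, 52.2 and 60.4 CPM at the high dose. The low dose gave 39.1, 36.9, 40.5 and 36.7 CPM and prexasertib 45.4, 36.1, 45.0 and 37.9 CPM, against 43.6, 43.9, 48.0 and 37.6 CPM in DMSO. The high dose lies above all 16 other libraries, as it did for 4.58% of all tested genes, and the remaining groups overlap. The combination did not differ from DMSO in the test (log2 fold change -0.13, 95% interval -0.36 to 0.10, edgeR adjusted p = 0.573).

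RRM2B, the p53-induced reductase subunit, stood at 36.2, 34.3, 30.2 and 33.5 CPM in the combination and at 17.7, 22.3, 12.2 and 22.1 CPM at the high dose. The low dose gave 16.2, 20.8, 16.8 and 21.4 CPM, and prexasertib 11.7, 15.3, 13.3 and 12.1 CPM, against 8.75, 16.5, 10.9 and 14.7 CPM in DMSO. Only the combination is clear of DMSO, and replicates 2 and 4 are the higher pair in DMSO, the low dose and the high dose. The combination differed from DMSO by 1.41 ± 0.18 on the log2 scale (edgeR adjusted p = 5.05e-07), with 1.76 within replicates 1 and 3 and 1.12 within replicates 2 and 4, each past the threshold in edgeR's test.

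The subunits it can pair with or replace went the other way. RRM2, the S-phase small subunit, averaged 156 ± 19 CPM in the combination and 217 ± 16 CPM in DMSO (SD, n = 4 each), and fell by 0.48 on the log2 scale (edgeR adjusted p = 0.000517). RRM1, the large subunit, averaged 461 ± 26 CPM in the combination and 572 ± 29 CPM in DMSO (SD, n = 4 each), and fell by 0.31 (edgeR adjusted p = 0.0162). SAMHD1, which degrades deoxynucleotides, did not pass the test (log2 fold change 0.16).

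**Figure D2:**
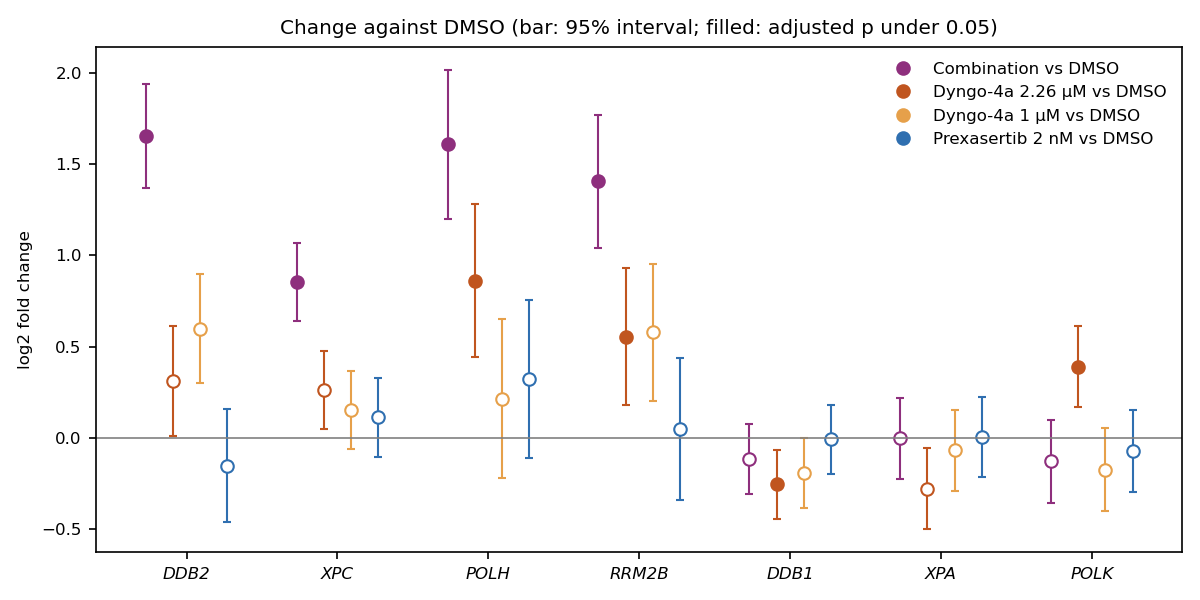
Log2 fold change against DMSO of the 7 tested genes (points) with 95% intervals (bars) in the combination, the high dose, the low dose and prexasertib; filled points passed the edgeR test at an adjusted p under 0.05. All 4 combination points of DDB2, XPC, POLH and RRM2B are filled and between 0.85 and 1.65, no low-dose or prexasertib point is filled, and POLK and DDB1 are filled at the high dose alone.

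At the high dose alone, POLH, RRM2B and POLK rose and DDB1 fell, 4 of 7 tested genes where 25.2% of all tested genes passed, 12.5% as higher and 12.7% as lower. POLH was 1.82-fold its DMSO level (log2 fold change 0.86 ± 0.21, edgeR adjusted p = 0.00184), and it passed in either pair of replicates, 1 and 3 or 2 and 4. POLK rose by 0.39 ± 0.11 on the log2 scale (edgeR adjusted p = 0.00737), with 0.29 within replicates 1 and 3 (adjusted p = 0.18 in edgeR) and 0.49 within replicates 2 and 4 (adjusted p = 0.0323 in edgeR). DDB2 and XPC, the damage sensors, had log2 fold changes of 0.31 (edgeR adjusted p = 0.126) and 0.26 (edgeR adjusted p = 0.0672) and did not pass.

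Of 6 fibroblast markers, 2 were tested, COL1A1 and PDGFRB. Both passed as lower at the high dose, as 12.7% of all tested genes did. The summed level of the 6 was 19.0 to 33.6 CPM at the high dose and 39.7 to 47.6 CPM in DMSO. The part of this in the high-dose changes was not tested.

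Both remaining high-dose calls were unstable. RRM2B rose by 0.55 ± 0.19 on the log2 scale (edgeR adjusted p = 0.0248), but its groups overlap, and the call was lost without DMSO replicate 1 or 3 or without high-dose replicate 2 or 4, at an adjusted p of up to 0.12. It was also lost within replicates 1 and 3 (adjusted p = 0.0883 in edgeR) and within 2 and 4 (adjusted p = 0.0982 in edgeR). DDB1 ranged from 169 to 208 CPM at the high dose, against 185 to 251 CPM in DMSO, and fell by 0.25 ± 0.09 (edgeR adjusted p = 0.042). That call was lost without DMSO replicate 1 or 4 or without high-dose replicate 1, 3 or 4, at an adjusted p of up to 0.192, and within replicates 2 and 4 (adjusted p = 0.397 in edgeR). With all libraries kept, the DDB1 call was also lost in edgeR without a low-count filter (adjusted p = 0.096), with a filter of 1 CPM in 4 libraries (adjusted p = 0.0506) and with the compared groups alone (adjusted p = 0.0831). XPA, at 32.7 to 40.8 CPM at the high dose, lay wholly below DMSO at 41.8 to 51.0 CPM, as 11.5% of all tested genes did, but its fall of 0.28 did not pass (edgeR adjusted p = 0.0585). It passed with DESeq2 (adjusted p = 0.047) and, in edgeR, without high-dose replicate 3 (adjusted p = 0.0389), as did XPC without that library (adjusted p = 0.0311 in edgeR).

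Between the doses of Dyngo-4a, both bypass polymerases were higher at the high dose than at the low dose, where 20.2% of all tested genes passed and 10.1% passed as higher. POLK differed by 0.56 ± 0.11 on the log2 scale (edgeR adjusted p = 0.000268). POLH differed by 0.65 ± 0.20 (edgeR adjusted p = 0.0201), a call that was lost without low-dose replicate 4 (adjusted p = 0.103 in edgeR) and within replicates 1 and 3 (adjusted p = 0.26 in edgeR). DDB2 ran the other way without passing, with an average of 20.5 ± 2.9 CPM at the high dose and 25.1 ± 2.6 CPM at the low dose (SD, n = 4 each; log2 difference -0.29, edgeR adjusted p = 0.156). RRM2B was near level, at 18.6 ± 4.8 CPM at the high dose and 18.8 ± 2.7 CPM at the low dose (SD, n = 4 each; log2 difference -0.02, 95% interval -0.38 to 0.34).

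At the low dose none of the 7 tested genes passed edgeR's test, against 36 of all tested genes (0.262%). Of the 7, 3 had an unadjusted p under 0.05 in edgeR, as did 1039 of all 13729 tested genes. DESeq2 called 1 of the 7, DDB2 (adjusted p = 0.0333 in DESeq2), and its count over all tested genes is not given here. DDB2 had the largest change, 0.60 ± 0.15 on the log2 scale (edgeR adjusted p = 0.0696), with every low-dose library above every DMSO library, a separation that 2.38% of all tested genes had. RRM2B followed with 0.58 ± 0.19 (edgeR adjusted p = 0.341). With the replicate number as a block, which the check of pairing allows in this comparison, both passed in edgeR, DDB2 at an adjusted p of 0.00745 and RRM2B at 0.0386, and 260 of all tested genes did.

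Prexasertib at 2 nM moved none of the 7 tested genes past the threshold, and none had an unadjusted p under 0.05. Of all tested genes edgeR called 0 (0%), with 518 at an unadjusted p under 0.05, while DESeq2 called 6 and edgeR with the replicate block 23. DDB2 had a log2 fold change of -0.15 with a 95% interval of -0.46 to 0.16, so a rise of the size seen in the combination lies outside the interval. The intervals were -0.11 to 0.75 for POLH, -0.10 to 0.33 for XPC and -0.34 to 0.43 for RRM2B.

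Set against each single treatment, the combination was higher for all 4 p53 targets every time. Against prexasertib, where 3.44% of all tested genes passed (472, and 1374 with the replicate block) and 2.4% passed as higher, the log2 differences were 1.81 for DDB2, 0.74 for XPC, 1.29 for POLH and 1.36 for RRM2B, with edgeR adjusted p-values of at most 2.45e-05. Against the low dose, where 3.85% passed (528, and 1149 with the replicate block) and 2.7% passed as higher, they were 1.05, 0.70, 1.39 and 0.83 in the same order of genes, with edgeR adjusted p-values of at most 0.00176. Against the high dose, where 20.5% passed, 10.4% as higher and 10.1% as lower, they were 1.34, 0.59, 0.75 and 0.85, with edgeR adjusted p-values of at most 0.0038. The POLH difference from the high dose was 1.01 within replicates 1 and 3 and 0.44 within replicates 2 and 4 (adjusted p = 0.268 in edgeR). The RRM2B difference from the low dose was 0.68 within replicates 2 and 4 and did not pass there (adjusted p = 0.103 in edgeR).

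POLK was the exception among the tested genes, lower in the combination than at the high dose by 0.52 ± 0.11 on the log2 scale (edgeR adjusted p = 0.000707). Within replicates 2 and 4 that fall was 0.45 and did not pass (adjusted p = 0.0577 in edgeR). XPA averaged 44.4 ± 3.3 CPM in the combination and 36.6 ± 3.4 CPM at the high dose (SD, n = 4 each), a log2 difference of 0.28 that missed the threshold (edgeR adjusted p = 0.0714) and passed with the replicate block (adjusted p = 0.039 in edgeR), in a comparison whose numbers pair by the check. DDB1 did not differ between the combination and any single treatment in the test.

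Whether the combination exceeded the sum of its parts was tested as an interaction, on the assumption that it held prexasertib at 2 nM and Dyngo-4a at 1 µM. DDB2 passed, as 0.284% of all tested genes did and 0.27% did as higher. The combination measured 1.65 on the log2 scale, the single-drug changes summed to 0.45, and the excess was 1.21 ± 0.20 (edgeR adjusted p = 0.00128), the 8th smallest p of all tested genes. Within replicates 1 and 3 the excess was 1.45 (adjusted p = 0.00699 in edgeR) and within replicates 2 and 4 it was 0.99 (adjusted p = 0.521 in edgeR).

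The other p53 targets had an excess in the same direction that did not pass. It was 1.07 ± 0.29 for POLH (edgeR adjusted p = 0.137), with 1.61 measured against a sum of 0.54. For XPC it was 0.59 ± 0.15 (edgeR adjusted p = 0.077), and for RRM2B 0.78 ± 0.26 (edgeR adjusted p = 0.372). POLH passed without low-dose replicate 1 or combination replicate 4, and XPC without combination replicate 4. The count of passing members thus ran from 1 to 3 over the left-out libraries, and that of all tested genes from 29 to 57. XPC also passed with DESeq2 (adjusted p = 0.0249). DDB1, XPA and POLK had excesses of 0.08, 0.06 and 0.12.

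**Figure D3:**
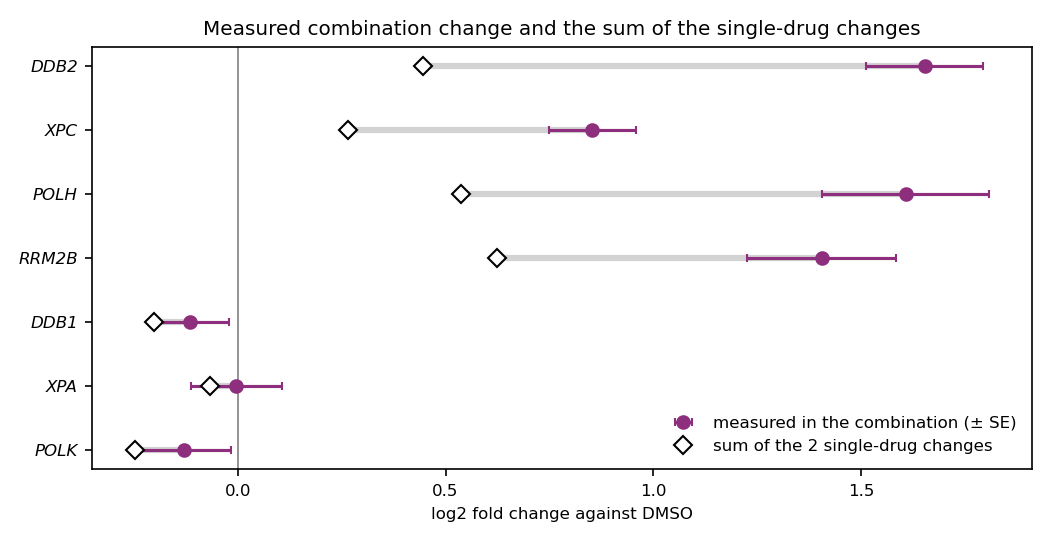
Log2 fold change against DMSO measured in the combination (filled circles, bars are SE) and the sum of the prexasertib and low-dose Dyngo-4a changes (open diamonds) for the 7 tested genes. The gap between the symbols is the excess, which is 1.21 for DDB2 and at most 0.12 for DDB1, XPA and POLK.

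Other p53 targets were taken as a list of 20 genes, 19 of them tested. The list was written with earlier results of these data known and is therefore no independent evidence of direction or of the size of change. In the combination 19 of 19 passed as higher, with a median log2 fold change of 1.78, where 3.47% of all tested genes passed as higher and their median was 0.00. At the high dose 16 passed as higher, against 12.5% of all tested genes, and the median was 1.08. At the low dose, where 0.262% of all tested genes passed, 5 did so as higher, or 10 with the replicate block, with a median of 0.56, and with prexasertib, where 0% of all tested genes passed, 0 did, or 4 with the block, with a median of 0.42. BBC3, which encodes the cell death protein PUMA, changed by 2.19 on the log2 scale in the combination and by 1.87 at the high dose, and PHLDA3, an inhibitor of AKT, by 2.42 in the combination and by 1.64 at the high dose. EDA2R, a death receptor relative, changed by 1.98 in the combination and by 1.40 at the high dose, and TP53INP1, a p53 cofactor, by 1.78 in the combination and by 1.31 at the high dose. These genes were named for their small p at the high dose, so their passing edgeR's test there was set by the choice. In the combination they passed as all 19 did. The changes of DDB2, XPC, POLH and RRM2B were all below this list's median, both in the combination and at the high dose.

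Among 30 excision repair partners, 29 of them tested, none passed in the combination against DMSO in edgeR's test. As 6.3% of all tested genes passed there, a count of 0 does not set a list of this size apart. The median log2 fold change in the combination was -0.07. At the high dose 3 passed as higher and 6 as lower, with a median of -0.12. These 9 of 29 are close to the 25.2% of all tested genes that passed there, so the count does not set the list apart. The lower ones were the single-strand binding subunit RPA3 (-0.72), the ubiquitin ligase parts CUL4A (-0.49) and RBX1 (-0.45) that carry DDB1, the nuclease subunit ERCC1 (-0.37), the XPC partner CETN2 (-0.35) and the transcription elongation factor ELOF1 (-0.34). The higher ones were the transcription-coupled repair factor ERCC6 (0.67), the scaffold XRCC1 (0.58) and the ligase LIG1 (0.28), and 1 of these 3 was left as passing without DMSO replicate 4 or without high-dose replicate 1.

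Of 15 translesion partners, all tested, REV3L rose and PCLAF fell in the combination, and the median was -0.11, where 6.3% of all tested genes passed. REV3L, the catalytic subunit of polymerase zeta, averaged 139 ± 33 CPM in the combination and 90.3 ± 17 CPM in DMSO (SD, n = 4 each; log2 fold change 0.62, edgeR adjusted p = 0.00456). PCLAF, which binds the sliding clamp, fell by 0.33 (edgeR adjusted p = 0.0198). Leaving out DMSO replicate 1, combination replicate 1 or combination replicate 3 moved the number of translesion partners passing as lower, which then ran from 0 to 2. At the high dose REV3L (0.47), the deubiquitinase cofactor WDR48 (0.45) and the helicase HLTF (0.37) rose, PCNA, the sliding clamp itself, fell by 0.51, and the median was 0.06. These 4 of 15 are likewise close to the 25.2% of all tested genes. RRM2 fell by 0.72 at the high dose (edgeR adjusted p = 1.98e-07), with 132 ± 5.2 CPM at the high dose and 217 ± 16 CPM in DMSO (SD, n = 4 each).

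**Figure D4:**
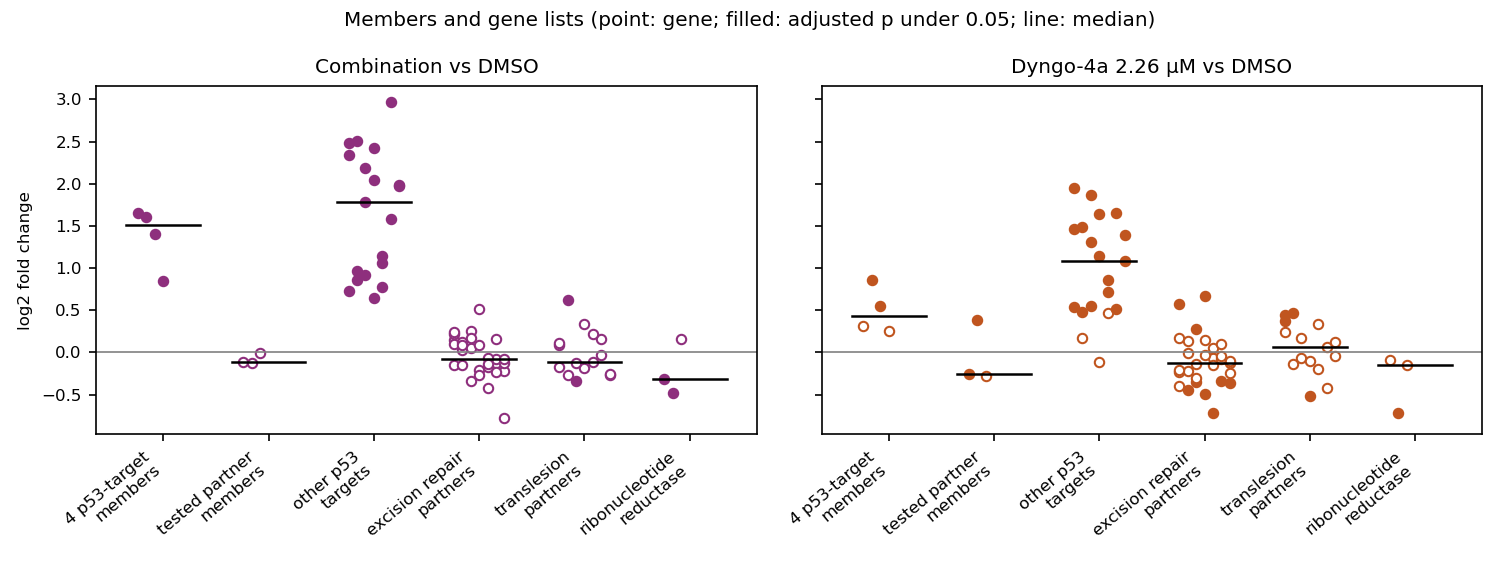
Log2 fold change of each tested gene (points; filled where the edgeR adjusted p is under 0.05) with the median of each list (line), for the combination against DMSO and the high dose against DMSO. The 19 other p53 targets have a median of 1.78 in the combination and 1.08 at the high dose, whereas the excision repair partners have medians of -0.07 in the combination and -0.12 at the high dose.

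The genes whose levels were most alike those of each p53 target over the 20 libraries were taken by Pearson's r of log2 CPM, a description over libraries that share treatments. For DDB2 they were HSPA4L (0.931), MEG3 (0.886) and METTL7A (0.876), and for RRM2B they were HSPA4L (0.921), METTL7A (0.901) and JUND (0.900). For XPC they were H2BC26 (0.941), WFIKKN2 (0.917) and GADD45B (0.891). For POLH they were GDF15 (0.943), MDM2 (0.933) and FDXR (0.920), the last 2 being members of the p53 target list.

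Over all groups, replicates 1 and 3 differed from replicates 2 and 4 in 2625 of all tested genes (edgeR, adjusted p under 0.05), a split the labels do not name. Among the 8 genes POLH was higher in replicates 1 and 3 by 0.34 on the log2 scale (edgeR adjusted p = 0.023) and RRM2B was lower there by 0.33 (edgeR adjusted p = 0.0131), and DDB2, XPC, DDB1, XPA and POLK did not pass. The combination against DMSO passed within either pair of replicates for all 4 p53 targets, and DDB2 moved least between them, with 1.68 in replicates 1 and 3 and 1.62 in replicates 2 and 4.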

How the data were processed

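Libraries were made with the QuantSeq 3′ mRNA kit with molecular barcodes and read single-end, per the labels' protocols. The deposited values are raw counts per gene by Ensembl identifier. The submitters' processing notes name FastQC 0.11.7, STAR 2.7.2b, edgeR 3.36.0, limma 3.50.3 and GRCh38. The annotation release, the counting and strand settings and whether barcodes were collapsed are given in no source used here. The range of total counts per library is given above. Floors cover counting error only, while the intervals of log2 fold changes come from edgeR's fit and also include the spread between libraries.

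Identifiers were matched to symbols for 58434 of 58787 genes. Genes were filtered with filterByExpr (minimum count 10, minimum total 15), scaled by TMM (factors 0.968 to 1.03) and fitted with a term per group over all 20 libraries in edgeR 4.0.16 (robust quasi-likelihood F-test, two-sided, 15 residual degrees of freedom) in R 4.3.3. In each of 9 comparisons the Benjamini-Hochberg adjustment ran over the whole set of tested genes, and the threshold was 0.05. A prior count of 2 was used for log2 CPM. The steps were tested on simulated counts. These had a common dispersion for all genes and no split of replicates 1 and 3 from 2 and 4, so they do not cover that split. Libraries of a group correlated across genes, which do not count as replicates, at Pearson's r of 0.970 to 0.981, and the counts of any 2 libraries differed by more than sampling noise (chi-square per degree of freedom 3.05 to 8.76).

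The members, gene lists and comparisons were chosen with earlier results of these data known. Named genes were the 8 members, called genes of the excision repair, translesion and reductase lists, up to 4 other p53 targets with the smallest p at the high dose, and the 3 genes most alike each p53 target. Genes outside this rule were named after their values were seen.

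The labels do not say that replicate numbers pair libraries, and this was tested on the data. Deviations from group means were correlated, and numbers were read as pairing where every same-number r passed 0.1. By this rule they pair prexasertib (0.157 to 0.213) and the low dose (0.144 to 0.237) with DMSO, the high dose with the low dose (0.110 to 0.298), and the combination with prexasertib (0.115 to 0.230), with the low dose (0.144 to 0.294) and with the high dose (0.172 to 0.319). The rule was not met for the combination (lowest 0.0274) or the high dose (lowest 0.0271) with DMSO, nor for the groups of the interaction. In both of these groups 3 of 4 libraries still correlated best with the DMSO library of their own number, so pairing there is undecided. Alternatives were relative log size factors, library sizes alone, no filter, 1 CPM in 4 libraries, DESeq2 1.42.0, limma-voom 3.58.1, the compared groups alone, the replicate block, a term for replicates 1 and 3 against 2 and 4, each of these subsets alone and leaving out each library.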

Additional observations from a re-analysis of the deposited data

Results flagged for a closer look

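XPA in DMSO replicate 1 stood at 51.0 CPM, apart from the other DMSO libraries at 41.8 to 42.9 CPM. It was the only such case among 40 groups of 4 libraries of the 8 genes, and chance sets apart about 1 group in 20. The XPA fall at the high dose was 0.28 with this library and, over the left-out libraries, 0.20 to 0.33.

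The effect of Dyngo-4a on DDB2 differed between cells with and without prexasertib, with an interaction log2 fold change of 1.21 (edgeR adjusted p = 0.00128), if the combination held the single-drug doses. Over the left-out libraries it ran from 1.11 to 1.27, and it passed each time. Within replicates 2 and 4 alone it was 0.99 and did not pass (adjusted p = 0.521 in edgeR).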

How the results depend on the processing

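Of 464 alternative settings of the 24 member changes that passed, 442 kept their direction and side of the threshold, 22 missed the threshold and 0 changed sign. Where numbers pair, the replicate block brought DDB2 and RRM2B at the low dose and XPA in the combination against the high dose past the threshold. In the comparisons without pairing by the check, it brought XPC (0.26) and XPA (-0.28) at the high dose and XPC (0.59) and POLH (1.07) in the interaction past it. It changed no other member call. For all genes the block called 260 at the low dose, 23 with prexasertib, 1976 in the combination against DMSO, 1374 against prexasertib, 1149 against the low dose and 167 for the interaction; the term for replicates 1 and 3 called 73, 4, 1427, 909, 829 and 93 in that order. DESeq2 called 6 genes with prexasertib and 72 for the interaction, no filter 62 at the low dose, 12 with prexasertib and 65 for the interaction, and the compared groups alone 2 with prexasertib. Members passing at the low dose were 1 with DESeq2, 2 with the block and 1 with the term. The count over all genes with DESeq2 at the low dose is not given here. For the interaction, members passing were 2 with DESeq2, 2 with no filter, 3 with the block and 3 with the term. The cause of these moves was not tested.

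Over the left-out libraries, members passing ran from 2 to 5 at the high dose, 1 to 2 between doses and 1 to 3 for the interaction. All genes passing ran from 2881 to 3231, 2160 to 2516 and 29 to 57 in the same order. In other comparisons all genes passing ran from 14 to 30 at the low dose and 0 to 2 with prexasertib. In the combination against prexasertib they ran from 309 to 474. In the combination against DMSO the block called 2 excision repair partners as higher and 3 as lower.

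Changes that did not pass and took the other sign were all small. Within replicates 2 and 4 these were DDB1 (0.0082), XPA (0.041) and POLK (0.038) in the combination against DMSO, DDB1 (0.070), DDB2 (0.068) and RRM2B (-0.19) with prexasertib, POLK (0.17) and XPA (0.016) in the combination against prexasertib, RRM2B (0.061) between doses, XPA (-0.0072) in the combination against the low dose, XPA (0.048) at the low dose and XPA (-0.032) in the interaction. Within replicates 1 and 3 they were POLK in the combination against the low dose (-0.093) and in the interaction (-0.080), XPA with prexasertib (-0.011) and XPC between doses (-0.0072), and with library sizes alone XPA with prexasertib (-0.0065). Over the left-out libraries, with prexasertib DDB1 ran from -0.082 to 0.057, RRM2B from -0.10 to 0.18 and XPA from -0.027 to 0.075. XPA ran from -0.036 to 0.071 in the combination against DMSO, from -0.041 to 0.032 against prexasertib and from -0.0038 to 0.11 in the interaction, POLK from -0.022 to 0.095 in the combination against the low dose and RRM2B from -0.12 to 0.14 between doses.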
